A study of Mus musculus with 24 samples.

Results

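Regulatory T cells (Treg) of old mice were set against the conventional CD4+ T cells sorted from the same organs of old mice. Old Treg (22 to 24 months, CD4+CD25+GITR+, 6 libraries) and old non-Treg (22 to 24 months, CD4+CD25-GITR-, 6 libraries) were taken by their group label and make up 12 of the 24 libraries of the study. The other libraries are young Treg (2 to 3 months, 7 libraries) and young non-Treg (2 to 3 months, 5 libraries), which entered the common fit and one comparison below. All mice were untreated C57BL/6 females, pooled by age, and each suspension mixed spleen with eye- and lacrimal-gland-draining nodes, so every library averages several mice and both organs. Both title series, DP20323 and DP182, hold 3 libraries of each old group.

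Treg restrain immune responses. They are specified by the transcription factor Foxp3, hold the high-affinity interleukin-2 receptor (CD25, encoded by Il2ra) and the TNF family receptor GITR, and act through receptors such as CTLA-4, through inhibitory cytokines and through uptake of interleukin-2. Most T cells without Foxp3 are helper cells, which leave the naive state on contact with antigen and then make effector cytokines and chemokines, and in some cases the molecules of killer cells.

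RNA was counted with a NanoString nCounter immune panel, which hybridises a coded probe to each transcript and counts the codes without amplification. A count below is 2 to the power of the deposited log2 value. Values under 20 counts were treated as dim, and 391 of 547 genes reached 20 in at least 5 of the 24 libraries and were tested. The old libraries held 316259 to 1279876 recovered counts in all. One library stood apart. Old Treg replicate 4 had 520 genes at 20 counts or more, against 350 to 418 in the other old Treg libraries and 351 to 381 in old non-Treg, and 131 of the 156 untested genes reached 20 there, against 0 to 34 in the other old libraries. Some B cell and neutrophil markers were raised in old Treg replicate 6 (Ms4a1 at 615 counts and S100a8 at 1352). Others, such as Cd79a and Cxcr2, were not raised there. Both replicates belong to DP182, and the differences that moved most without them are given both ways.

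The marker genes of the sort followed the labels in all 12 libraries. Foxp3, the lineage factor of Treg, had 7623 to 10206 counts (median 9119) in old Treg, against 32.9 to 124 (median 77.1) in old non-Treg, and its means of 13.15 and 6.15 on the log2 scale differed by an exact permutation test over every assignment of 6 against 6 (two-sided p = 0.0022, the smallest this design allows). Il2ra encodes CD25, which defined the sort and is therefore no finding, and it had 6806 to 9741 counts (median 8078) in old Treg, against 192 to 337 (median 258) in old non-Treg. Cd4 was present in both populations, with 4564 to 6275 counts (median 5806) in old Treg, against 7346 to 8850.0 (median 8239.7) in old non-Treg. The gene of GITR was not analysed here. A bulk library cannot tell apart fewer cells that carry a transcript from less of it in each cell, which holds for each result below.

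Old Treg and old non-Treg differed in most of the panel. Of the 391 tested genes, 277 (70.8%) passed an adjusted p of 0.05 in limma, 174 of them (44.5%) higher and 103 (26.3%) lower in old Treg. A change of 2-fold or more was seen in 125 genes (32.0%), 81 higher and 44 lower. The 6 values of one group lay wholly above those of the other in 138 genes (35.3%). The median log2 difference of all tested genes was 0.20, so any list is read below against that median and those percentages. Some genes could enter the test only through the old Treg libraries, among them Cd40, Ltbr, Cxcl3, Cxcl11, C1ra, Clu, Ciita and Tnfsf15. They are kept in the counts of genes that rose, here and by list, so those counts rest partly on them. Without old Treg replicates 4 and 6, 276 genes passed, 160 higher and 116 lower, and 256 of the 277 were among them. How the libraries are scaled moved the balance of directions: 62.8% of the calls were higher as deposited, 48.1% after centring each library on its median, which moved the median difference by -0.20, and 41.6% after quantile normalisation. Differences on the log2 scale are given below as old Treg minus old non-Treg ± SE, with 6 libraries in each group.

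**Figure D1:**
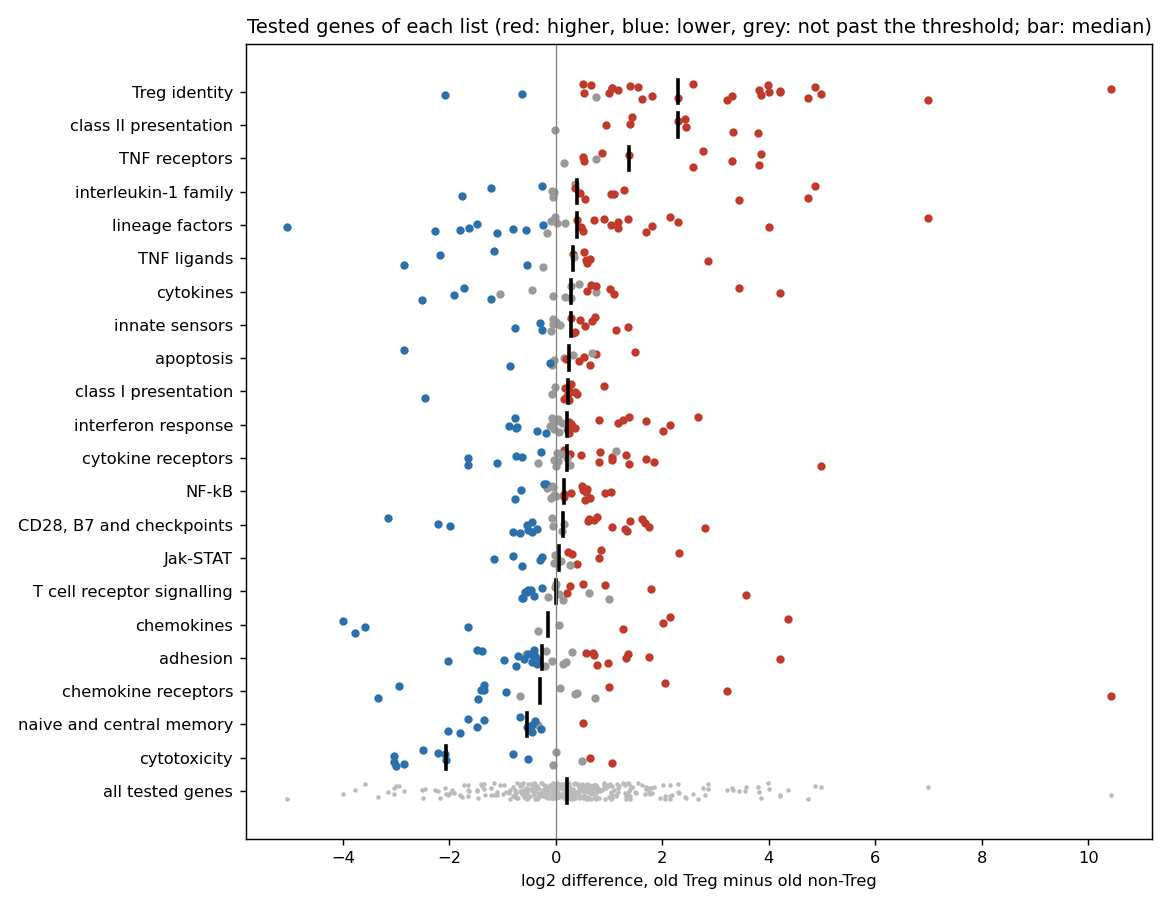
Log2 difference of each tested gene, old Treg minus old non-Treg, by gene list (rows, ordered by median), with all 391 tested genes in the bottom row. Red points were higher and blue points lower in old Treg at an adjusted p of 0.05, grey points did not pass, and black bars are medians; Treg identity (median 2.30) and class II presentation (2.29) lie at the top and cytotoxicity (-2.07) at the bottom, against 0.20 for all genes.

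Genes that mark Treg in textbooks were higher in old Treg almost throughout. Of 29 tested genes of the Treg identity list, 26 rose, 2 fell and 1 did not pass, with a median log2 difference of 2.30; 25 of the 29 had groups that did not overlap. Such genes are marks of the sorted population, so their direction describes the sort and is no independent result. Ikzf4, which encodes Eos, a partner of Foxp3 in gene repression, had 1668 to 2701 counts (median 1982) in old Treg, against 74.9 to 190.4 (median 127) in old non-Treg (log2 difference 4.0 ± 0.14, adjusted p = 5.75e-16). Ikzf2, which encodes Helios, had 9992 to 19967 counts (median 14354) in old Treg, against 2454 to 3336 (median 2864) in old non-Treg. Its difference of 2.3 ± 0.12 came without overlap. Cd81, a tetraspanin of the cell surface, had 5391 to 9312 counts in old Treg with a median of 7262, and 309.7 to 604 in old non-Treg with a median of 361, which gave the smallest adjusted p of the panel (log2 difference 4.2 ± 0.12, adjusted p = 5.62e-17). Cd83, an activation marker of dendritic cells and Treg, had 2900.2 to 4683 counts (median 3952) in old Treg, against 176 to 326 (median 257) in old non-Treg (log2 difference 3.99 ± 0.17, adjusted p = 1.15e-14). Tigit, an inhibitory receptor for CD155, had 4774 to 7468 counts (median 5804) in old Treg, against 1397 to 2456 (median 1933) in old non-Treg (log2 difference 1.62 ± 0.15, adjusted p = 6.66e-09).

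The 2 list members that fell were Il10ra and Gzmb. Il10ra, a chain of the interleukin-10 receptor, had 718 to 1319 counts (median 1067) in old Treg, against 1261 to 1904 (median 1558) in old non-Treg (log2 difference -0.63 ± 0.16, adjusted p = 0.00157). Gzmb, which encodes the protease granzyme B, had 29.9 to 330.1 counts (median 50.8) in old Treg, against 79.3 to 1308 (median 373) in old non-Treg (log2 difference -2.08 ± 0.53, adjusted p = 0.00155; without old Treg replicates 4 and 6, -2.68), and the groups overlapped. Il10 itself was the member that did not pass. It encodes the inhibitory cytokine interleukin-10 and had 137 to 1280.5 counts (median 414) in old Treg, against 73.8 to 783 (median 274) in old non-Treg, a difference of 0.76 ± 0.57 (adjusted p = 0.249), with wide overlap. Among the ectoenzymes that turn extracellular ATP into adenosine, Nt5e (CD73) had 4287 to 6751 counts (median 4962) in old Treg, against 1441 to 2093 (median 1700.1) in old non-Treg (log2 difference 1.54 ± 0.08, adjusted p = 7.7e-13), a clear separation. Entpd1 (CD39) had 477 to 621 counts (median 571) in old Treg, against 238 to 580.1 (median 392) in old non-Treg, its groups overlapped (log2 difference 0.53 ± 0.22, adjusted p = 0.0348), and the call was lost without old Treg replicates 4 and 6 (adjusted p = 0.057) and after median centring (adjusted p = 0.178). It was also lost when old Treg replicate 3, 5 or 6 or old non-Treg replicate 2 or 4 was left out alone, with adjusted p up to 0.115.

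**Figure D2:**
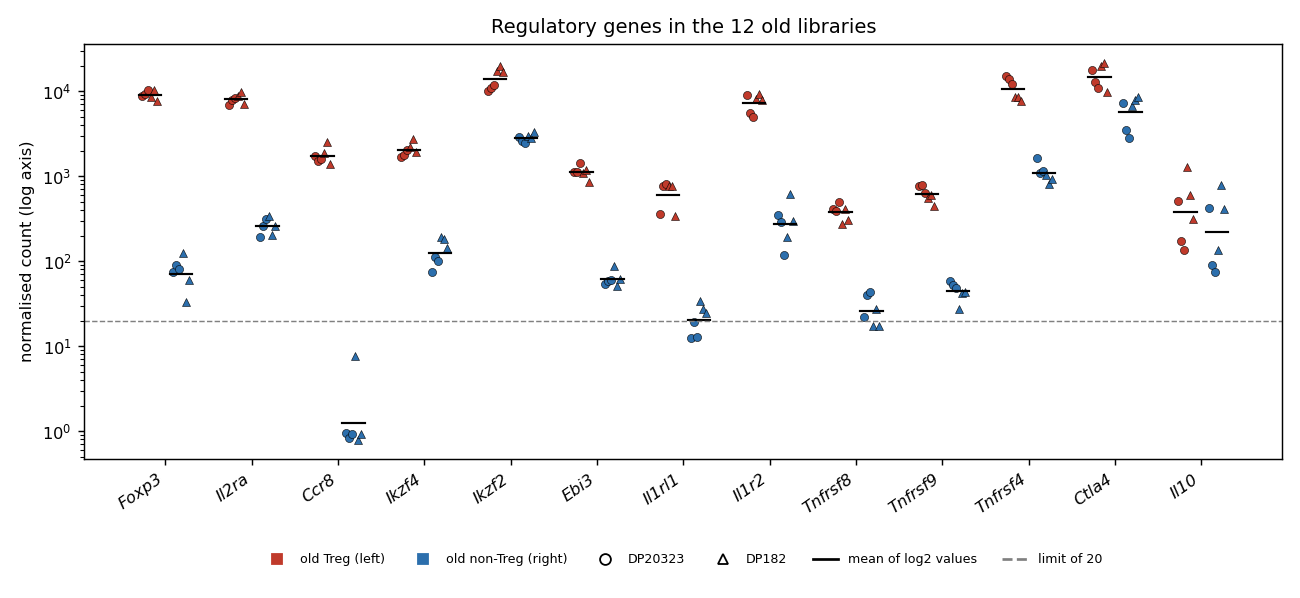
Normalised counts (log axis) of 13 regulatory genes in each old library, old Treg in red on the left and old non-Treg in blue on the right of each gene; circles are DP20323, triangles DP182, black bars the mean of log2 values and the dashed line the limit of 20 counts. Foxp3 shows 7623 to 10206 counts in old Treg, against 32.9 to 124 in old non-Treg, whereas the 2 groups overlap for Il10.

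Chemokine and alarmin receptors of the Treg list were among the genes that rose. Ccr8, a chemokine receptor known from Treg of skin and tumours, had 1384 to 2535 counts (median 1656) in old Treg, against 0.784 to 7.61 (median 0.917) in old non-Treg. All old non-Treg libraries were under 20 counts, so old Treg were at least 86.8-fold higher (adjusted p = 2.26e-12). Ccr6, the receptor of CCL20, had 561 to 1486 counts (median 1032) in old Treg, against 45.5 to 251 (median 105) in old non-Treg (log2 difference 3.22 ± 0.31, adjusted p = 6.92e-09). Il1rl1, which encodes ST2, the receptor of the alarmin interleukin-33, had 338 to 811 counts (median 759) in old Treg, against 12.3 to 34.3 (median 22.0) in old non-Treg (log2 difference 4.86 ± 0.26, adjusted p = 6.03e-13). With values under 20 set to 20 the Il1rl1 difference was 4.63. Within the interleukin-1 family as a whole, 9 of 16 tested genes rose and 3 fell, with a median of 0.41.

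Il1r2, Il1rn, Sigirr and Il18r1 were other members of the family that rose. Il1r2 encodes a decoy receptor that binds interleukin-1 without signalling, and it had 4937 to 9289 counts (median 8059) in old Treg, against 119 to 623 (median 294) in old non-Treg (log2 difference 4.73 ± 0.4, adjusted p = 9.03e-10). Il1rn encodes the interleukin-1 receptor antagonist and had 121 to 277 counts (median 202) in old Treg, against 10.5 to 27.4 (median 17.6) in old non-Treg. Its mean in old non-Treg was below the limit of 20, and the difference of 3.44 ± 0.29 (adjusted p = 8.58e-10) became 3.08 with values under 20 set to 20. Sigirr, a receptor that dampens signalling of the family, had 1785 to 2711 counts (median 2314) in old Treg, against 951 to 1276 (median 1120.1) in old non-Treg (log2 difference 1.04 ± 0.09, adjusted p = 1.29e-09). Il18r1, a chain of the interleukin-18 receptor, had 2336 to 5051 counts (median 3779) in old Treg, against 1114 to 1838 (median 1565) in old non-Treg (log2 difference 1.27 ± 0.12, adjusted p = 9.74e-09). Among the 3 that fell, Il1rl2, a chain of the interleukin-36 receptor, fell to 18.4 to 62.5 counts in old Treg, against 98.6 to 133 in old non-Treg (log2 difference -1.76 ± 0.19, adjusted p = 3.59e-08).

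The gene starts behind some of the largest differences are shown because members that move together can share sequence words there. The 250 bases upstream of a start are from the RefSeq promoter table of GRCm38.p6 and run 5′ to 3′ on the gene's strand. In all, 3 words were searched on both strands: ACCACA (Runx), TCACAC (T-box) and GTAAACA (forkhead), and capitals mark a match of the word or of its reverse complement. Ccr8 (GRCm38.p6, chr9:120091883-120092132, plus strand) and the second start of Il1rl1 (chr1:40439379-40439628, plus strand) are among the genes that rose, and Prf1 (chr10:61297586-61297835, plus strand) and Ccl3 (chr11:83649379-83649628, minus strand), which are described below, among those that fell. These 4 do not stand for all. The windows of Eomes, Fasl, Ebi3, both starts of Foxp3 and the first start of Il1rl1 hold none of the 3 words. No start of Ccl5 or Ccl4, which fell by similar amounts to Ccl3, was in the promoter table.
Ccr8: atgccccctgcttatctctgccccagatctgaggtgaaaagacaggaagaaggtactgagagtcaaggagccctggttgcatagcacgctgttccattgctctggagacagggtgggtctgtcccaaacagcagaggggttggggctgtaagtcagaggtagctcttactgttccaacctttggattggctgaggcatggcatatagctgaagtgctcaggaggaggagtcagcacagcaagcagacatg
Il1rl1: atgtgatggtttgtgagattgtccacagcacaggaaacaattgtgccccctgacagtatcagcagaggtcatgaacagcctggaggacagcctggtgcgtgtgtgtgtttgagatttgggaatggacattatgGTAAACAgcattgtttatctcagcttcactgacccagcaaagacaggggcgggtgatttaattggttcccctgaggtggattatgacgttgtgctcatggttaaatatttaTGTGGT
Prf1: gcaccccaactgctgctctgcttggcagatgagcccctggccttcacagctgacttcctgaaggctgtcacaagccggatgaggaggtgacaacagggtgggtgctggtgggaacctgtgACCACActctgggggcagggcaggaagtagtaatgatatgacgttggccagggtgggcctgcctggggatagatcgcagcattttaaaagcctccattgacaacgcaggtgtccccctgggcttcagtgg
Ccl3: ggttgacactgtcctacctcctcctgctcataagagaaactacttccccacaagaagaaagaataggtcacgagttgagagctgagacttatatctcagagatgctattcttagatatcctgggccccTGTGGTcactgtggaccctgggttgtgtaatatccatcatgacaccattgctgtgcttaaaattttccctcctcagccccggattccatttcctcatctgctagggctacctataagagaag
The Runx word begins at position -130 before the start in Prf1, at -122 on the opposite strand in Ccl3 and at -6 on the opposite strand in Il1rl1. The forkhead word begins at -117 in Il1rl1, and none of the words is in the Ccr8 window. Of the 44 genes that fell 2-fold or more, 31 were in the table with 39 promoters. The Runx word was in 10 of those (25.6%), against 4614 of all 32851 promoters (14.0%) and 59 of the 374 promoters of tested genes (15.8%). The T-box word was in 7 (17.9%, against 12.3% of all) and the forkhead word in 0, where 3.17% of all promoters hold it. Of the 75 promoters found for genes that rose 2-fold or more, 9 held the Runx word, 9 the T-box word and 3 the forkhead word. A match is a string of letters and not a measured binding site.

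Receptors of the TNF family, which carry survival and activation signals to Treg, rose or did not pass. Of 11 tested, 9 were higher and 0 lower in old Treg, with a median difference of 1.38. The 9 include Cd40 and Ltbr, which entered the test only through the old Treg libraries. Tnfrsf9, an inducible co-stimulatory receptor, had 447 to 785 counts (median 622) in old Treg, against 27.6 to 58.8 (median 46.3) in old non-Treg (log2 difference 3.81 ± 0.13, adjusted p = 5.75e-16). Tnfrsf4, which encodes OX40, had 7755 to 14978 counts (median 10370.4) in old Treg, against 799.7 to 1616 (median 1059) in old non-Treg (log2 difference 3.3 ± 0.12, adjusted p = 5.75e-16). Every old Treg library lay above every old non-Treg library for both. Tnfrsf8 (CD30) had 271 to 501 counts (median 403) in old Treg, against 17.1 to 43.3 (median 24.6) in old non-Treg (log2 difference 3.85 ± 0.23, adjusted p = 3.38e-12). Tnfrsf1b, the second receptor of TNF, had 5411 to 6080.2 counts (median 5757) in old Treg, against 818 to 1123 (median 954) in old non-Treg (log2 difference 2.57 ± 0.09, adjusted p = 5.75e-16). Cd40, better known from B cells and other presenting cells, had 40.6 to 293 counts (median 57.9) in old Treg. Old non-Treg had 5.71 to 17.3 (median 11.2), so old Treg were at least 3.70-fold higher. Old Treg replicate 4 had 293 counts and the next library 78.6. Young Treg had a median of 18.1 counts and young non-Treg at most 14.0. Cd40 could therefore enter the test only by being high in old Treg, and no p is given. Without replicates 4 and 6 the Cd40 difference was 2.56.

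The ligands of the family went both ways, with 6 of 12 higher, 4 lower and a median of 0.33. The 6 include Tnfsf15, which entered the test only through the old Treg libraries. Cd40lg, the helper signal to B cells, fell to 431 to 786 counts in old Treg, against 2155 to 3262 in old non-Treg (log2 difference -2.18 ± 0.14, adjusted p = 2.04e-11). Fasl, the ligand that triggers death of cells bearing Fas, fell to 74.1 to 239 counts, against 587 to 1250.0 in old non-Treg (log2 difference -2.86 ± 0.28, adjusted p = 1.27e-08), whereas Fas itself had 509.6 to 644 counts (median 630.1) in old Treg, against 356 to 471 (median 424) in old non-Treg (log2 difference 0.53 ± 0.06, adjusted p = 2.74e-07). Lta, which encodes lymphotoxin alpha, had 563 to 794 counts (median 719) in old Treg, against 436 to 522 (median 475) in old non-Treg (log2 difference 0.57 ± 0.09, adjusted p = 5.78e-06). Tnf had 208 to 852 counts in old Treg with a median of 361, and 222 to 1103 in old non-Treg with a median of 505, with overlapping groups and a difference of -0.25 ± 0.19 (adjusted p = 0.247). It passed, as lower in old Treg, after median centring (-0.45, adjusted p = 0.0396) and quantile normalisation (-0.47, adjusted p = 0.0255).

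Receptors of the CD28 and B7 families and other checkpoints split, with 12 of 26 higher and 10 lower (median 0.13). Ctla4, the checkpoint through which Treg take B7 ligands from presenting cells, had 9913 to 21557 counts (median 15317) in old Treg, against 2829 to 8577 (median 6950.2) in old non-Treg (log2 difference 1.4 ± 0.42, adjusted p = 0.00529). The groups did not overlap, but values within each differed by over 2-fold, and the DP182 libraries alone gave an adjusted p of 0.0941. Icos, a co-stimulatory receptor, had 5437 to 7655 counts (median 6509) in old Treg, against 2562 to 4118 (median 2972) in old non-Treg (log2 difference 1.05 ± 0.14, adjusted p = 9.28e-07). The B7 genes Cd86 and Cd80 also rose. Cd86 had 185 to 470.1 counts (median 291) in old Treg, against 53.1 to 162 (median 90.2) in old non-Treg (log2 difference 1.68 ± 0.18, adjusted p = 2.55e-08). Cd80 had 418 to 775 counts (median 556) in old Treg, against 162 to 306 (median 239.5) in old non-Treg (log2 difference 1.3 ± 0.2, adjusted p = 5.78e-06). Pdcd1, which encodes PD-1, had 1618 to 3801 counts in old Treg with a median of 2824, and 1469 to 3467 in old non-Treg with a median of 2593. Its difference of 0.11 ± 0.24 did not pass (adjusted p = 0.708) and turned sign under several settings. Lair1, an inhibitory receptor for collagen, fell to 11.2 to 175 counts in old Treg, where replicate 4 gave 175 and the next library 29.6, against 175 to 290.4 in old non-Treg (log2 difference -3.16 ± 0.4, adjusted p = 3.89e-07). Without replicates 4 and 6 the Lair1 difference was -3.84.

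Among the cytokines, the inhibitory genes Ebi3 and Tgfb1 were higher and the effector genes Ifng and Il21 lower in old Treg, but they were not the only members to move. Ebi3, a shared subunit of interleukin-27 and interleukin-35, had 861 to 1434 counts (median 1119) in old Treg, against 51.0 to 87.6 (median 59.3) in old non-Treg (log2 difference 4.2 ± 0.15, adjusted p = 5.75e-16). Tgfb1, which encodes the inhibitory cytokine TGF-beta 1, had 2401 to 3303 counts (median 2842) in old Treg, against 1530.3 to 2089 (median 1763) in old non-Treg (log2 difference 0.66 ± 0.05, adjusted p = 2.5e-10). Tgfb3 went the other way, with 14.0 to 213 counts (median 21.1) in old Treg, against 91.3 to 137 (median 104) in old non-Treg, and its groups overlapped only through replicate 4 at 213 counts (log2 difference -1.91 ± 0.44, adjusted p = 0.000638; without replicates 4 and 6, -2.5). Among the receptors, Tgfbr1 had 1124 to 1658 counts (median 1583) in old Treg, against 365 to 510.1 (median 404) in old non-Treg (log2 difference 1.85 ± 0.1, adjusted p = 6.34e-13) while Tgfbr2 had 2195 to 2913 counts (median 2622) in old Treg, against 3638 to 5149 (median 4239) in old non-Treg (log2 difference -0.75 ± 0.06, adjusted p = 6.89e-10).

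Ifng, which encodes interferon gamma, fell to 79.6 to 475 counts in old Treg, against 587 to 2441 in old non-Treg (log2 difference -2.51 ± 0.23, adjusted p = 3.86e-09). Il21, the cytokine of follicular helper cells, fell to 257 to 999.5 counts, against 849 to 1611 in old non-Treg (log2 difference -1.21 ± 0.3, adjusted p = 0.00127), with overlap. In DP182 alone the Il21 difference was -0.26 and did not pass (adjusted p = 0.486). Il2 had 18.4 to 652 counts in old Treg with a median of 53.9, and 88.1 to 235 in old non-Treg with a median of 130.4. It did not pass (log2 difference -1.05 ± 0.5, adjusted p = 0.0659), but without old Treg replicate 4, which holds the 652 counts, the difference was -1.65 (adjusted p = 5.45e-05). Il17a had 8.39 to 175 counts in old Treg with a median of 20.3, and 11.1 to 168 in old non-Treg with a median of 36.6 and a difference of -0.45 ± 0.44 (adjusted p = 0.387), and without replicate 4 it was -0.86 (adjusted p = 0.0431). Over the whole cytokine list 7 of 19 tested genes rose and 4 fell, with a median of 0.29. Besides Ebi3, Tgfb1 and Il1rn, those that rose were Il18 (1.09), Lif (1.01), Csf1 (0.76) and Mif (0.58). Besides Ifng and Il21, those that fell were Tgfb3 and Il4 (-1.73).

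The largest falls in old Treg lay in genes of effector and killer T cells. Eomes, a T-box factor of effector, memory and cytotoxic T cells, fell to 51.5 to 479 counts (median 95.9) in old Treg, against 2916 to 7489 (median 3539) in old non-Treg, the largest fall of the panel (log2 difference -5.05 ± 0.41, adjusted p = 5.38e-10). The highest old Treg libraries were replicates 4 and 6 at 441 and 479 counts, and the others held 51.5 to 130.3. Without those replicates the difference was -5.88 (adjusted p = 1.42e-13). Tbx21, the related T-box factor of Th1 cells, had 239 to 312 counts (median 260.0) in old Treg, against 212 to 335 (median 319) in old non-Treg and did not pass (log2 difference -0.16 ± 0.18, adjusted p = 0.431), although after quantile normalisation it did (-0.99, adjusted p = 0.0162).

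Chemokines that draw inflammatory cells followed. Ccl5 had 2003 to 14251 counts (median 3142) in old Treg, against 28073 to 153558 (median 65376) in old non-Treg (log2 difference -4.0 ± 0.4, adjusted p = 1.4e-08). Ccl3 had 39.3 to 899.8 counts (median 119.7) in old Treg, against 838 to 5049 (median 2129.8) in old non-Treg (log2 difference -3.78 ± 0.56, adjusted p = 3.98e-06), with an overlap of the highest old Treg library, replicate 6, and the lowest old non-Treg library. Ccl4 had 29.9 to 366 counts (median 68.9) in old Treg, against 430.2 to 2736 (median 1216) in old non-Treg (log2 difference -3.58 ± 0.5, adjusted p = 1.88e-06). For each of these 3 genes old Treg replicates 4 and 6 were the highest of the old Treg libraries. Leaving both out widened the falls to -4.65 for Ccl5, -4.71 for Ccl3 and -4.38 for Ccl4. Cxcr6, the receptor of CXCL16, had 68.6 to 986 counts (median 240.5) in old Treg, against 1218 to 2383 (median 1929.6) in old non-Treg (log2 difference -2.95 ± 0.47, adjusted p = 1.01e-05; without replicates 4 and 6, -3.71). On the other side, Cxcl3, a neutrophil attractant, had 49.6 to 178 counts (median 119) in old Treg, against 0.922 to 13.3 (median 6.51) in old non-Treg, at least 5.24-fold higher in old Treg. It reached the limit of 20 in old Treg libraries only, so it could enter the test only by being high there, and no p is given. Cxcl10, a target of interferon, had 357 to 1579.9 counts (median 744) in old Treg, against 61.8 to 586 (median 154) in old non-Treg (log2 difference 2.02 ± 0.27, adjusted p = 1.05e-06). The chemokine list as a whole held 4 genes higher and 4 lower of 10 tested, and the receptor list 4 higher and 7 lower of 16. The 4 higher chemokine genes include Cxcl3 and Cxcl11, which entered the test only through the old Treg libraries.

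**Figure D3:**
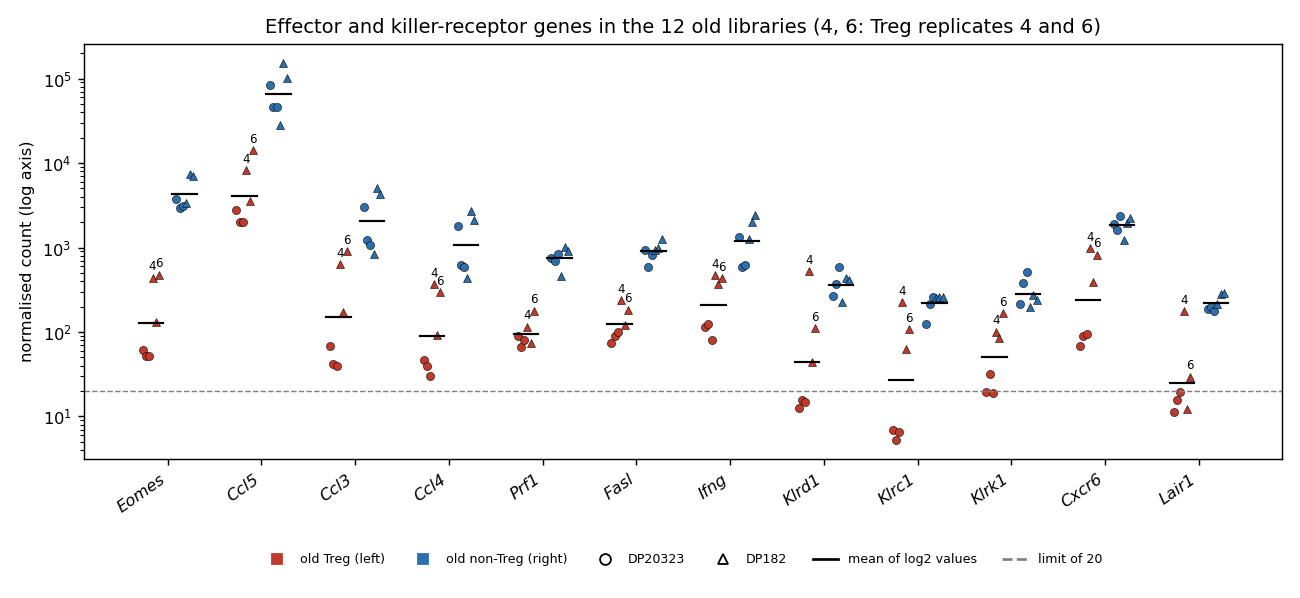
Normalised counts (log axis) of 12 effector and killer-receptor genes in each old library, old Treg in red on the left and old non-Treg in blue on the right of each gene; circles are DP20323, triangles DP182, black bars the mean of log2 values, the dashed line the limit of 20 counts, and 4 and 6 mark old Treg replicates 4 and 6. For Eomes those replicates lie at 441 and 479 counts and the other old Treg libraries at 51.5 to 130.3, against 2916 to 7489 in old non-Treg.

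Of 15 tested genes of the cytotoxicity list, 10 fell and 2 rose, with a median of -2.07. Without replicates 4 and 6, 12 fell and 2 rose. Prf1, which encodes the pore-forming perforin, had 65.7 to 179 counts (median 85.0) in old Treg, against 465 to 1014 (median 799) in old non-Treg (log2 difference -3.0 ± 0.22, adjusted p = 7.93e-11). Gzma, which encodes granzyme A, had 11.4 to 82.2 counts (median 25.6) in old Treg, against 69.7 to 162 (median 111) in old non-Treg (log2 difference -2.07 ± 0.38, adjusted p = 5.84e-05; without replicates 4 and 6, -2.52). Slamf7, a receptor of killer and activated cells, had 91.9 to 236 counts (median 119.9) in old Treg, against 493 to 726 (median 612) in old non-Treg (log2 difference -2.22 ± 0.2, adjusted p = 2.85e-09). Perforin and Slamf7 were separated without overlap, and granzyme A was not. Klrd1, Klrc1 and Klrk1 encode the killer lectin-like receptors CD94, NKG2A and NKG2D. Klrd1 had 12.6 to 521 counts (median 29.9) in old Treg, against 229 to 585 (median 392) in old non-Treg, and the 521 counts came from replicate 4 (log2 difference -3.04 ± 0.58, adjusted p = 9.31e-05; without replicates 4 and 6, -4.16). Klrc1 had 5.25 to 228 counts (median 35.2) in old Treg, against 125 to 261 (median 253) in old non-Treg (log2 difference -3.04 ± 0.59, adjusted p = 0.000102; without them, -4.07). Klrk1 had 18.7 to 167 counts (median 58.4) in old Treg, against 198 to 506 (median 253) in old non-Treg (log2 difference -2.49 ± 0.44, adjusted p = 3.3e-05; without them, -3.09). In DP182 alone the falls of Klrd1 (-1.34, adjusted p = 0.155) and Klrc1 (-1.14, adjusted p = 0.0591) did not pass. The part of replicates 4 and 6 in these values was not tested beyond leaving them out.

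Lineage factors of helper cells did not move as a block, with 15 of 29 tested genes higher, 9 lower and a median of 0.40. Gata3, the Th2 factor that Treg also use, had 2566 to 3967 counts (median 3335) in old Treg, against 1344 to 2091 (median 1516) in old non-Treg (log2 difference 1.03 ± 0.13, adjusted p = 3.36e-07). Ahr, a receptor for ring-shaped environmental ligands, had 389 to 850.3 counts (median 587) in old Treg, against 80.6 to 206 (median 129) in old non-Treg (log2 difference 2.14 ± 0.17, adjusted p = 3.9e-10). Prdm1, which encodes Blimp-1, a factor of differentiated effector cells, had 1192 to 2701 counts (median 1924) in old Treg, against 266 to 1187 (median 502) in old non-Treg (log2 difference 1.8 ± 0.2, adjusted p = 6.28e-08). These 3 factors were higher in old Treg without overlap. Bcl6, the factor of follicular helper cells, had 183 to 451 counts in old Treg with a median of 340.5, and 323 to 634 in old non-Treg with a median of 446 (log2 difference -0.56 ± 0.12, adjusted p = 0.000326), with overlap. Runx3, a factor of killer T cells, had 21.0 to 213 counts (median 59.6) in old Treg, against 196 to 671 (median 265) in old non-Treg (log2 difference -2.27 ± 0.27, adjusted p = 1.48e-07; without replicates 4 and 6, -2.75). Ikzf1 encodes Ikaros, a relative of Helios and Eos, and went against them with 516 to 1631 counts (median 997) in old Treg, against 1676 to 4587 (median 3098) in old non-Treg (log2 difference -1.63 ± 0.06, adjusted p = 7.03e-16).

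Genes of naive and central memory T cells were lower in old Treg, with 11 of 13 tested genes lower and 1 higher (median -0.54). Tcf7, which encodes the factor TCF-1 of naive and stem-like T cells, had 3816 to 6957 counts (median 5073) in old Treg, against 14569 to 24569.6 (median 16868) in old non-Treg (log2 difference -1.8 ± 0.08, adjusted p = 2.18e-14). Lef1, its relative, had 780.1 to 1208 counts (median 979) in old Treg, against 1666 to 4822 (median 2638) in old non-Treg (log2 difference -1.48 ± 0.12, adjusted p = 8.63e-10). For both genes no old Treg library reached the lowest old non-Treg library. Ccr7, the receptor that leads cells to the T cell zone, had 838 to 1672 counts (median 1121) in old Treg, against 2359 to 4468 (median 2833) in old non-Treg (log2 difference -1.35 ± 0.18, adjusted p = 7.94e-07). Il6ra, the receptor of interleukin-6, had 334 to 782 counts (median 629) in old Treg, against 1411 to 2791 (median 1658) in old non-Treg (log2 difference -1.65 ± 0.13, adjusted p = 2.27e-10). The member that rose was Cd27, a TNF family receptor, with 4234 to 5561 counts (median 5160.5) in old Treg, against 3088 to 3858 (median 3555) in old non-Treg (log2 difference 0.5 ± 0.07, adjusted p = 1.41e-06). After quantile normalisation Cd27 did not pass (0.14, adjusted p = 0.149).

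Signalling genes moved by smaller steps, with medians near that of all genes. Of 21 T cell receptor genes, 6 rose and 8 fell (median 0.00). Cd247, the zeta chain of the receptor complex, had 4756 to 5636 counts (median 5384) in old Treg, against 7455 to 9012 (median 8230.0) in old non-Treg (log2 difference -0.63 ± 0.05, adjusted p = 1.9e-10), and Lck, the kinase that starts its signal, had 11081 to 12428 counts (median 11385) in old Treg, against 14199 to 17101 (median 15269) in old non-Treg (log2 difference -0.42 ± 0.05, adjusted p = 3.32e-07). Src, a kinase of the same family, was the exception in size, with 287 to 580.4 counts (median 363) in old Treg, against 22.1 to 55.7 (median 33.4) in old non-Treg (log2 difference 3.57 ± 0.21, adjusted p = 2.95e-12). Of 21 NF-kB genes, 11 rose and 4 fell (median 0.15). Relb had 2062 to 2902 counts (median 2344) in old Treg, against 1214 to 1852 (median 1465) in old non-Treg (log2 difference 0.64 ± 0.09, adjusted p = 2.64e-06) and Nfkb1 had 3756 to 5439 counts (median 4252) in old Treg, against 2483 to 3567 (median 2958) in old non-Treg (log2 difference 0.55 ± 0.08, adjusted p = 2.51e-06), both subunits of the factor. After median centring the NF-kB list held 7 higher and 7 lower.

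Of 16 Jak-STAT genes, 6 rose and 5 fell (median 0.06). Cish, an inhibitor that interleukin-2 signals induce through STAT5, had 380.3 to 1053 counts (median 921) in old Treg, against 106 to 222 (median 175) in old non-Treg (log2 difference 2.32 ± 0.16, adjusted p = 3.28e-11). Stat5a had 1347 to 2269 counts (median 1809) in old Treg, against 814 to 1309 (median 974) in old non-Treg (log2 difference 0.84 ± 0.1, adjusted p = 3.02e-07). Stat4, which carries interleukin-12 signals, fell to 370.3 to 582 counts in old Treg, against 750.1 to 986 in old non-Treg (log2 difference -0.81 ± 0.08, adjusted p = 1.94e-08). Il2rb, the beta chain of the interleukin-2 receptor, had 14669 to 20614 counts (median 17829) in old Treg, against 7458 to 10625 (median 8051) in old non-Treg (log2 difference 1.06 ± 0.15, adjusted p = 2.56e-06). Among 27 cytokine receptors 12 rose and 6 fell (median 0.21), and Il17ra, a chain of the interleukin-17 receptor, fell to 768 to 1201 counts in old Treg, against 1790.3 to 2847 in old non-Treg (log2 difference -1.11 ± 0.07, adjusted p = 9.39e-12).

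Of 30 interferon genes, 14 rose and 6 fell (median 0.21), and the count was 9 and 10 after median centring. Irf5, an interferon regulatory factor of inflammatory responses, had 403 to 487 counts (median 454) in old Treg, against 56.2 to 83.0 (median 73.2) in old non-Treg (log2 difference 2.66 ± 0.14, adjusted p = 5.33e-13). Ddx58, which encodes the RNA sensor RIG-I, went down with 1098 to 1437 counts (median 1271) in old Treg, against 1823 to 2386 (median 2148) in old non-Treg (log2 difference -0.77 ± 0.05, adjusted p = 4.9e-11). Of 14 class I presentation genes, 11 rose and 1 fell with a median of 0.23, close to the 0.20 of all genes, and 2 rose and 2 fell after median centring. The gene that fell was H2-Q10, a class I gene whose product is secreted, with 60.2 to 290.2 counts (median 104) in old Treg, against 386 to 841 (median 675) in old non-Treg (log2 difference -2.45 ± 0.29, adjusted p = 1.76e-07).

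Adhesion genes tended the other way, with 14 of 30 lower, 9 higher and a median of -0.27. Thy1, a surface marker of T cells, had 2637 to 4488 counts (median 3687) in old Treg, against 8233 to 11963 (median 10328) in old non-Treg (log2 difference -1.49 ± 0.07, adjusted p = 9.12e-14). Itga4, the alpha 4 integrin chain used to enter inflamed tissue, had 1959 to 4766 counts (median 3336) in old Treg, against 3703 to 8942 (median 6634) in old non-Treg (log2 difference -0.97 ± 0.07, adjusted p = 1.31e-10). Pecam1, which encodes CD31, had 694 to 1344 counts (median 923) in old Treg, against 1765 to 3514 (median 2353) in old non-Treg (log2 difference -1.38 ± 0.09, adjusted p = 2.48e-11). Of 14 apoptosis genes, 6 rose and 3 fell (median 0.25). Bid, which passes death signals to mitochondria, had 393 to 518 counts (median 478) in old Treg, against 258 to 317 (median 275) in old non-Treg (log2 difference 0.76 ± 0.06, adjusted p = 1.23e-09), without overlap.

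Genes of class II presentation were higher in old Treg, and some markers of other cell types were high in replicates 4 and 6. Of 9 tested class II genes 8 rose and 0 fell (median 2.29, with 1.17 in DP20323 and 2.96 in DP182). Cd74, the invariant chain that escorts class II molecules, had 6789.7 to 10913 counts (median 8630.5) in old Treg, against 353 to 1263 (median 576) in old non-Treg (log2 difference 3.8 ± 0.31, adjusted p = 5.38e-10). Its level was even across old Treg libraries, and its difference was 3.77 without replicates 4 and 6. Ctss, the protease that trims it, had 6173 to 9279.8 counts (median 7793) in old Treg, against 2517 to 3043 (median 2851) in old non-Treg (log2 difference 1.43 ± 0.06, adjusted p = 1.15e-14). The class II chains were uneven. H2-Aa had 342 to 2151 counts (median 524) in old Treg, against 38.1 to 234 (median 136) in old non-Treg, with 2151 counts in replicate 6 and 641 in replicate 4 (log2 difference 2.44 ± 0.53, adjusted p = 0.000378; without them, 1.94, adjusted p = 0.00435). H2-Eb1 had 304 to 1190.3 counts (median 430.3) in old Treg, against 24.7 to 111 (median 51.4) in old non-Treg (log2 difference 3.32 ± 0.41, adjusted p = 3.61e-07; without them, 3.02). H2-DMb2, which helps load peptide, had 148 to 502 counts (median 178) in old Treg, against 29.0 to 66.4 (median 39.6) in old non-Treg (log2 difference 2.42 ± 0.26, adjusted p = 4.73e-08).

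Marker genes of other cell types were summed in each library. The 13 B cell genes in the panel summed to 1369.6 to 4085 counts in old Treg, against 1636 to 2404 in old non-Treg; of 9 tested, 3 rose and 2 fell. Ms4a1, which encodes CD20 of B cells, had 47.7 to 615 counts (median 91.2) in old Treg, against 27.6 to 55.9 (median 34.3) in old non-Treg, with 615 counts in replicate 6 and 286 in replicate 4 (log2 difference 1.76 ± 0.44, adjusted p = 0.00136; without them, 0.85, adjusted p = 0.00591). Cd79b, a chain of the B cell receptor, had 304 to 903 counts (median 343) in old Treg, against 26.5 to 50.2 (median 35.1) in old non-Treg (log2 difference 3.55 ± 0.2, adjusted p = 1.12e-12). It too was highest in replicates 6 and 4, at 903 and 507 counts. The other old Treg libraries held 304 to 349.8 counts and also lay above every old non-Treg library. The 8 natural killer genes summed to 110.4 to 4157 counts in old Treg, against 3416 to 8149 in old non-Treg; of 5 tested 3 fell and 0 rose. Klra8, Klra1, Klra7 and Ncam1 of that list reached 1823, 547, 283 and 196 counts in replicate 4. In the other old Treg libraries they held at most 31.8, 10.5, 12.3 and 18.6 counts. Klra1 and Ncam1 were under 20 counts in old non-Treg, where Klra8 had 22.8 to 35.1 and Klra7 6.66 to 25.6. The 16 monocyte and macrophage genes summed to 1567 to 3937 counts in old Treg, against 873 to 1914 in old non-Treg. Of these 16 genes, 11 were under 20 counts in every old non-Treg library, and Adgre1 and Csf1r reached 340.3 and 115 counts in replicate 4. In that replicate 131 of the 156 untested genes of the panel also reached 20 counts. Which cells the counts of these markers came from was not tested.

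The sums above also hold genes that T cells use. In old non-Treg, Eomes had 2916 to 7489 counts of the natural killer sum and Cxcr5 1103 to 1974 of the B cell sum. Those sums are therefore no measure of other cells. The lists that follow hold such genes too. All 5 tested plasma cell genes and 7 of 8 dendritic cell genes rose, among them Prdm1, Cd83, Cd80 and Cd86 from above. Of 3 neutrophil genes 2 rose, Il1r2 and S100a8. S100a8, a calcium-binding protein of neutrophils, had 4.20 to 1352 counts (median 15.8) in old Treg, against 0.839 to 19.2 (median 6.08) in old non-Treg. It passed in limma (adjusted p = 0.00802), but both medians were under 20 counts. Only replicates 4 and 6 exceeded 20, so no fold is given. Without them its difference of 1.13 did not pass (adjusted p = 0.119). Cd8b1, a chain of CD8, rose to 26.3 to 121 counts in old Treg, against 14.8 to 30.5 in old non-Treg (log2 difference 0.92 ± 0.25, adjusted p = 0.0023), and its 121 counts were in replicate 4. Without replicates 4 and 6 the Cd8b1 difference was 0.67 (adjusted p = 0.000663), and it did not pass in DP182 alone (adjusted p = 0.0945) or after quantile normalisation (0.05, adjusted p = 0.855). How far these other markers enter the class II and effector values was not tested. Of 17 innate sensor genes 9 rose and 3 fell (median 0.29), and 5 rose and 6 fell after median centring. Of 9 complement genes 4 rose and 1 fell (median 0.69), and 2 rose and 1 fell after median centring or without replicates 4 and 6. The 4 include C1ra and Clu, which entered the test only through the old Treg libraries. Of all tested genes 44.5% rose and 26.3% fell.

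For some genes, killer receptors among them, the size of the difference depended on the title series. A fit with a mean for each group in each series found 11 of 391 genes (2.81%) whose old Treg difference differed between DP20323 and DP182 at an adjusted p of 0.05, and 53 at an unadjusted p of 0.05. All 11 had the lower difference in DP20323. They were Klrc1, Klrk1, Klrd1, Cxcr6, Il12rb2, Il1r1, Il21, Cxcl9, Tlr9, Tnfsf8 and Btla. Klrc1 was under 20 counts in all 3 old Treg libraries of DP20323 and had 63.4, 107 and 228 in old Treg of DP182, against 125 to 261 in the 6 old non-Treg libraries. Its old Treg difference was -4.93 in DP20323 and -1.14 in DP182 (difference -3.79 ± 0.6, adjusted p = 0.00244). Klrk1 gave -3.94 in DP20323 and -1.05 in DP182 (-2.89 ± 0.48, adjusted p = 0.00244). Cxcr6 gave -4.53 in DP20323 and -1.37 in DP182 (-3.16 ± 0.61, adjusted p = 0.00624). Il12rb2, a chain of the interleukin-12 receptor, gave -3.04 and -0.26 in the same order (-2.78 ± 0.56, adjusted p = 0.00839). Several of these values are under 20 counts, and with values under 20 set to 20 the difference between series no longer passed for Il12rb2 (adjusted p = 0.0822), Il1r1 (0.247) and Klrd1 (0.054). In a fit of the 12 old libraries alone it did not pass for Btla, Il1r1, Klrd1 and Tlr9 (adjusted p = 0.189 to 0.24). After quantile normalisation it did not pass for Btla, Cxcl9, Il12rb2, Il1r1, Klrd1, Klrk1 and Tlr9 (adjusted p = 0.0528 to 0.228).

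Leaving out replicates 4 and 6, which are both of DP182, left only old Treg replicate 5 in that series, so sizes alone are given. The difference between series was then -2.92 for Klrc1, -2.49 for Klrk1, -2.98 for Il12rb2, -2.35 for Cxcr6 and -2.02 for Cxcl9. It was -1.76 for Klrd1, -1.16 for Tlr9, -0.54 for Btla, and -1.53 for each of Tnfsf8, Il1r1 and Il21. Before, it was -3.18 for Tlr9 and -2.72 for Il1r1. Foxp3, Ccr8 and Eomes had the same direction in both series. Foxp3 differed by 6.87 in DP20323 and 7.12 in DP182, and Ccr8 by 10.8 and 10.06. Eomes differed by -5.88 and -4.22. The test of the difference between series did not pass for Foxp3, Ccr8 or Eomes (adjusted p = 0.893, 0.838 and 0.0999).

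**Figure D4:**
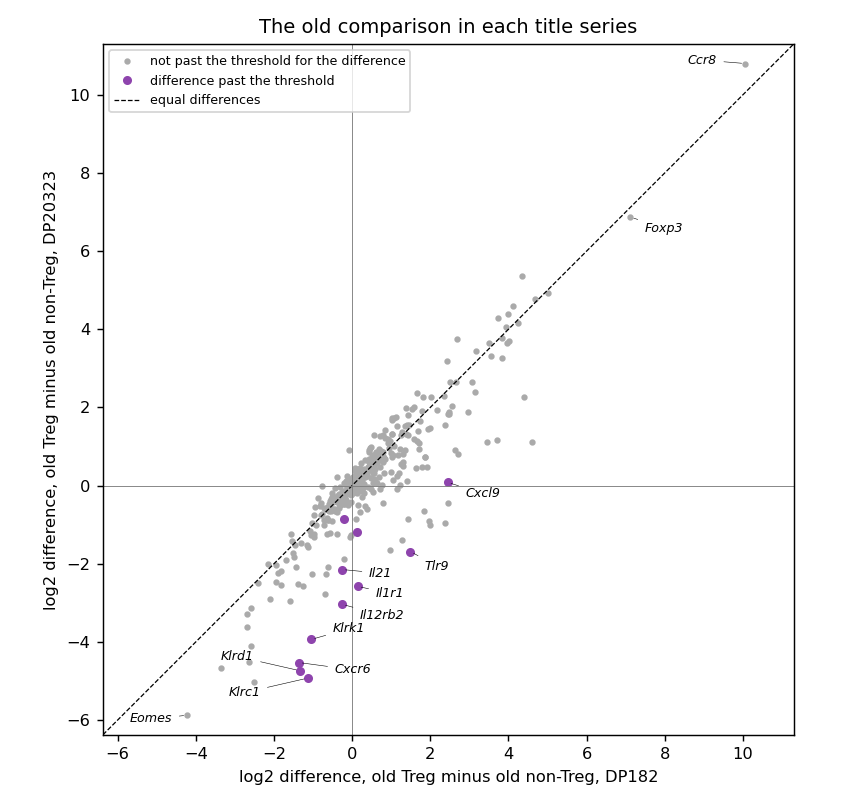
Log2 difference, old Treg minus old non-Treg, of the 391 tested genes in DP182 (x axis) and in DP20323 (y axis). Purple points are the 11 genes whose difference differed between the title series at an adjusted p of 0.05, and all of them lie below the dashed line of equal differences, as Klrc1 does at -4.93 in DP20323 and -1.14 in DP182.

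The old comparison differed from the young one in 156 of 391 genes (39.9%) by a test of the difference of the Treg effects, 31 with a higher and 125 with a lower difference in the old. That balance moved with the scaling, to 161 higher and 57 lower after median centring. The young comparison has its own libraries, and the fit shares its estimate of spread and the term for the title series. Of the 206 genes that passed at both ages, 184 had the same direction and 22 opposite directions. The change of Foxp3 between ages did not pass, with a Treg difference of 6.99 in the old and 6.85 in the young (difference 0.15 ± 0.48, adjusted p = 0.839).

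Eomes and the chemokine genes Ccl3 and Ccl4 led the lower differences. Eomes had 51.5 to 479 counts in old Treg and 2916 to 7489 in old non-Treg, while young Treg held 101 to 141 and young non-Treg 119.8 to 170.0. Its difference was -5.05 in the old and -0.11 in the young, which gave a change of -4.94 ± 0.58, adjusted p = 6.36e-07. Old Treg libraries spanned the young values, and every old non-Treg library lay above them. Ccl5 had 2003 to 14251 counts in old Treg and 28073 to 153558 in old non-Treg, while young Treg held 320.5 to 427 and young non-Treg 556 to 1204. The change of its difference was -2.96 ± 0.57, adjusted p = 0.000242. Both old groups lay above both young groups. Ccl3 had 39.3 to 899.8 counts in old Treg and 838 to 5049 in old non-Treg, while young Treg held 6.54 to 45.2 and young non-Treg 13.1 to 24.9. Ccl4 had 29.9 to 366 counts in old Treg and 430.2 to 2736 in old non-Treg, while young Treg held 6.36 to 22.4 and young non-Treg 11.7 to 15.1. The young values of both are at or near the dim limit. Their changes of -4.31 ± 0.8, adjusted p = 0.000147 for Ccl3 and -3.94 ± 0.72, adjusted p = 0.000122 for Ccl4 were -4.30 and -3.76 with values under 20 set to 20. In DP182 alone the changes of Ccl3, Ccl4 and Ccl5 did not pass (adjusted p = 0.0579, 0.0579 and 0.116).

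Several Treg genes were also closer between the old groups. Ikzf2 had 9992 to 19967 counts in old Treg and 2454 to 3336 in old non-Treg, while young Treg held 6888 to 11654 and young non-Treg 214 to 485, and its difference was 2.3 in the old and 4.78 in the young (change -2.48 ± 0.18, adjusted p = 7.72e-10). The old non-Treg libraries all exceeded the young non-Treg libraries. The same held for Tigit, with 4774 to 7468 counts in old Treg and 1397 to 2456 in old non-Treg, while young Treg held 695 to 1303 and young non-Treg 46.6 to 84.9 (change -2.35 ± 0.22, adjusted p = 4.11e-08). Il2rb had 14669 to 20614 counts in old Treg and 7458 to 10625 in old non-Treg, while young Treg held 14554 to 19759 and young non-Treg 1141 to 2327 (change -2.35 ± 0.22, adjusted p = 3.69e-08). Entpd1 had 477 to 621 counts in old Treg and 238 to 580.1 in old non-Treg, while young Treg held 245 to 448 and young non-Treg 19.3 to 56.1 (change -2.83 ± 0.31, adjusted p = 2.53e-07). For Ikzf2, Tigit, Il2rb and Entpd1 the old groups were closer together than the young groups. Pdcd1, which did not pass in the old, had 1618 to 3801 counts in old Treg and 1469 to 3467 in old non-Treg, while young Treg held 703 to 1140.0 and young non-Treg 109 to 331 (change -2.05 ± 0.34, adjusted p = 4.84e-05). Gzmb had 29.9 to 330.1 counts in old Treg and 79.3 to 1308 in old non-Treg, while young Treg held 16.8 to 50.8 and young non-Treg 6.56 to 12.8. All young non-Treg values of Gzmb were under 20 counts, and with values under 20 set to 20 its change was -2.53 (adjusted p = 0.00657). The difference of Slamf7 had opposite signs, with -2.22 in the old and 0.49 in the young (change -2.71 ± 0.29, adjusted p = 1.95e-07). Cxcr5, the homing receptor of follicular helper cells, did so too, with 632 to 961 counts in old Treg and 1103 to 1974 in old non-Treg, while young Treg held 321 to 573 and young non-Treg 83.6 to 199 (change -2.75 ± 0.28, adjusted p = 1.32e-07).

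**Figure D5:**
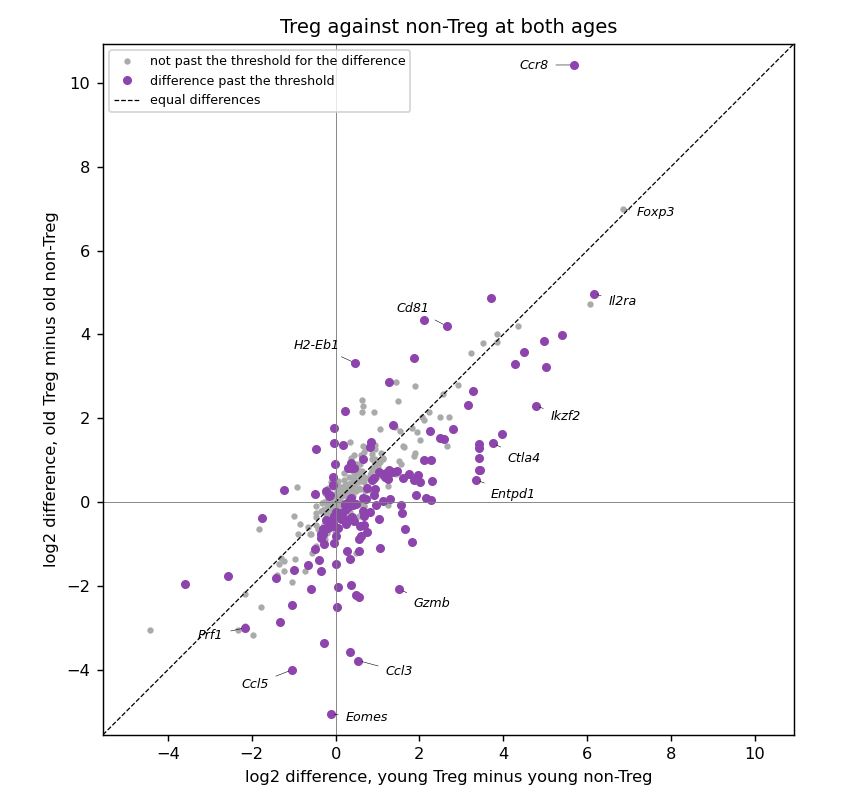
Log2 difference, Treg minus non-Treg, of the 391 tested genes in young mice (x axis) and in old mice (y axis). Purple points are the 156 genes whose difference differed between ages at an adjusted p of 0.05; Foxp3 lies on the dashed line of equal differences, Eomes lies at -5.05 in the old and -0.11 in the young, and Ccr8 at 10.43 and 5.68.

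Ccr8, H2-Eb1 and Cd81 were among the genes with a higher difference in the old. Ccr8 had 1384 to 2535 counts in old Treg and 0.784 to 7.61 in old non-Treg, while young Treg held 483 to 868 and young non-Treg 2.10 to 59.0. The change of 4.75 ± 0.87, adjusted p = 0.000134 rests partly on values near 0 in non-Treg, and it was 2.02 (adjusted p = 2.11e-05) with values under 20 set to 20. Cd81 had 5391 to 9312 counts in old Treg and 309.7 to 604 in old non-Treg, while young Treg held 1739.7 to 2442 and young non-Treg 267 to 384 (change 1.55 ± 0.18, adjusted p = 4.16e-07). Il18r1 had 2336 to 5051 counts in old Treg and 1114 to 1838 in old non-Treg, while young Treg held 846 to 1220.0 and young non-Treg 1264 to 1601, so that its direction was opposite at the 2 ages (change 1.73 ± 0.18, adjusted p = 1.32e-07). H2-Eb1 had 304 to 1190.3 counts in old Treg and 24.7 to 111 in old non-Treg, while young Treg held 15.8 to 70.5 and young non-Treg 10.5 to 48.5 (change 2.87 ± 0.59, adjusted p = 0.000461), and with values under 20 set to 20 its change was 3.18, above that of Ccr8. C1ra, a protease that starts the classical complement cascade, had 34.6 to 129 counts in old Treg and 9.22 to 17.3 in old non-Treg, while young Treg held 8.72 to 16.2 and young non-Treg 8.29 to 12.5. For C1ra, Cxcl3 and Tnfsf15 every library outside old Treg was under 20 counts, so these genes entered the test through old Treg alone and are given as levels, with no test. Tnfsf15, a ligand of the TNF family, had 37.4 to 366 counts (median 52.9) in old Treg, against 4.61 to 15.2 (median 11.4) in old non-Treg, at least 3.52-fold higher in old Treg, with 366 counts in replicate 4 and 71.3 in the next library.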

How the data were processed

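A NanoString nCounter immune panel was read in 24 libraries of sorted CD4+ T cells, of which the 6 old Treg and 6 old non-Treg libraries are compared here. The authors deposited a log2 value per gene and library. Each is the log2 of a count after scaling by 1 factor per library, as found from the values: within each library 2 to the power of a value was a whole multiple of 1 step in 100.0% of genes under 1000 counts (tolerance 0.02). How that factor was set, whether background was subtracted and which software was used are not given in the sources used here. The largest step was 2.6266, so 1 recovered count was worth that much in old Treg replicate 2, the shallowest library with 316259 counts; precision at low values is limited by counting and by an unknown background.

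Genes with 20 counts or more in at least 5 of 24 libraries were tested. limma 3.58.1 (R 4.3.3) was run on all 24 libraries, with 4 group means and a term for the title series (residual degrees of freedom 19), and adjusted p-values are Benjamini-Hochberg over the 391 genes; the difference between ages is a contrast of that fit, and the difference between title series comes from a fit of 8 group means (residual degrees of freedom 16). Where every library of a group lay under 20, a fold is a lower bound against 20. The labels number no replicates and do not say which libraries came from separate pools of mice, so replicate numbers follow the order of the samples, and p-values measure the spread between these libraries, which may be technical. Same-group pairs of old libraries were compared by a chi-square test of their counts (lowest value per degree of freedom 8.07), and none were merged.

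Symbols were matched to the RefSeq gene table of GRCm38.p6, 531 by symbol and 13 by an older name, with 3 unmatched. The genes and lists were chosen with earlier results of these data known. Named genes were the 12 largest calls in each direction, up to 4 members of each list with the smallest adjusted p, the 8 largest age differences and 5 largest title-series differences in each direction, the 8 genes with the highest mean, the 8 most variable in old Treg and a set listed by name. Ahr, H2-Aa, Icos, Il10ra, Il12rb2, Il1rl2, Nt5e, Btla, Cxcl9, Il1r1, Tnfsf8, Adgre1, Csf1r, Klra1 and Ncam1 were added after their values were seen. So were Klra8, Klra7, Ltbr, Cxcl11, Clu, Ciita, Il18, Lif, Csf1, Mif and Il4. Some genes are not reported here. Alternatives were each title series alone, no series term, the 12 old libraries alone, 3 other scalings, a floor of 20, a limit of 50, no filter, a pseudocount of 10, sample weights, a mean-variance trend, and leaving out each library or old Treg replicates 4 and 6. Foxp3, Il2ra and Cd4 had an exact permutation test. Scripts were tested on simulated data. Figures were drawn with matplotlib 3.10.9 in Python 3.11.15.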

Additional observations from a re-analysis of the deposited data

Results flagged for a closer look

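For 101 of the genes named here, 196 groups of 6 old libraries were checked for a library far from the rest. The rule was a gap to the nearest library above Dixon's 95% critical value. About 5% of groups would be picked by chance, and 11 were. Klra8 was not among the genes checked. Replicate 4 of old Treg was the high library in 6 of the 11: Cd40 at 293 counts (next library 78.6), Cd8b1 at 121 (36.5), Il2 at 652 (67.8), Lair1 at 175 (29.6), Tgfb3 at 213 (25.2) and Tnfsf15 at 366 (71.3). H2-Aa stood at 2151 counts in old Treg replicate 6 (641). In old non-Treg, Ebi3 at 87.6 counts (62.1) and Il6ra at 2791 (1793) were high in replicate 4, while Klrc1 at 125 (212) was low in replicate 1 and Tbx21 at 212 (309) in replicate 5.

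The old Treg difference differed between the title series, DP20323 minus DP182, by the test of that difference in limma for 11 genes. On the log2 scale it was -0.64 for Btla, -2.36 for Cxcl9, -3.16 for Cxcr6, -2.78 for Il12rb2, -2.72 for Il1r1, -1.89 for Il21, -3.79 for Klrc1, -3.39 for Klrd1, -2.89 for Klrk1, -3.18 for Tlr9 and -1.31 for Tnfsf8.

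The Treg difference differed between old and young, by the test of that difference, for these genes among those with the largest such changes. Old minus young, it was higher for App (1.65), C1ra (1.96), Ccr8 (4.75), Cxcl3 (2.23), H2-Eb1 (2.87), Il18r1 (1.73), Ms4a1 (1.80) and Tnfsf15 (1.58). It was lower for Ccl3 (-4.31), Ccl4 (-3.94), Ccl5 (-2.96), Entpd1 (-2.83), Eomes (-4.94), Gzmb (-3.60) and Runx3 (-2.83). Gzmb was under 20 counts in all young non-Treg libraries, and with values under 20 set to 20 its change was -2.53 and that of Ccr8 2.02. C1ra (1.96), Cxcl3 (2.23) and Tnfsf15 (1.58) reached 20 counts in old Treg only. They entered the test through that group, so they are left out of the list of tested changes. Their changes are given as sizes alone, and their levels are given above. The change of Ms4a1 did not pass in DP20323 alone (0.50, adjusted p = 0.412), in DP182 alone (adjusted p = 0.0622) or without old non-Treg replicate 6 (adjusted p = 0.0504).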

How the results depend on the processing

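Of the old comparison, 67 genes were called lower in DP182 alone, and quantile normalisation gave 111 higher and 156 lower. Leaving out 1 library gave 260 to 279 genes called, 163 to 176 higher, 93 to 111 lower and 123 to 131 at 2-fold or more. Among the 101 genes described, only Pdcd1 turned direction under any setting (its range without 1 library was -0.02 to 0.22), at -0.07 in DP20323 alone, -0.10 after median centring, -0.23 after quantile normalisation and -0.02 without old Treg replicate 6 or old non-Treg replicate 4. In DP182 alone 10 of the 101 lost their call (Bcl6, Cd8b1, Ctla4, Cxcr5, Entpd1, Il12rb2, Il21, Klrc1, Klrd1 and Tgfb3) and in DP20323 alone 3 (Entpd1, Il10ra and S100a8). Quantile normalisation lost the calls of Cd27, Cd8b1 and Entpd1 and gained those of Il17a, Il2, Tbx21 and Tnf, and median centring lost that of Entpd1 and gained those of Il2 and Tnf. Il2 also passed in DP20323 alone, with sample weights and without old non-Treg replicate 5, S100a8 lost its call with sample weights, and Entpd1 lost it without the series term, while the Abcf1 scaling, the floor, no filter, the pseudocount, the mean-variance trend and the old libraries alone changed no call among them. The exact permutation tests left out 1 library with differences of 6.77 to 7.15 for Foxp3, 4.89 to 5.05 for Il2ra and -0.57 to -0.48 for Cd4.

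Of the difference between ages, DP182 alone called 78 genes, 10 higher and 68 lower, and DP20323 alone 15 higher. Centring on Abcf1 gave 83 lower, median centring 161 higher and 57 lower, quantile normalisation 78 higher, and leaving out the series term 20 higher. Leaving out 1 library gave 138 to 169 called, 24 to 33 higher and 114 to 136 lower. Of the difference between title series, Abcf1 gave 31 genes and quantile normalisation 5. Leaving out 1 library gave 6 to 29: 6 without old Treg replicate 2 or 6, 7 without old Treg replicate 4 or old non-Treg replicate 2, and 29 without old Treg replicate 5. The cause was not tested. No paired analysis was possible because the labels give no replicate numbers that groups share. Values under 20 counts are limited by counting and an unknown background.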
